A study of Mus musculus with 10 samples.

Results

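The genes described here are 7 smooth muscle contractile genes, *Acta2*, *Actg2*, *Tagln*, *Cnn1*, *Cald1*, *Des* and *Smtn*, chosen by symbol from the platform annotation of the arrays, out of 19937 genes that have a probe set of their own. A gene was read from the probe set annotated to it alone with the highest mean over all 10 arrays, and each of the 7 had 1 such probe set. Neural crest progenitors (NCPs) carrying the transgene C3Fe.Tg(*Sox10*-HIST2H2BE/Venus)ASout, labelled E13 and sorted by flow cytometry for H2BVenus fluorescence, account for 3 Gene 1.0 ST mouse arrays from Affymetrix. The other 7 arrays hold the reference, RNA of total embryos. Precision is limited by how few arrays there are, and p-values here measure spread between arrays, part of which is technical. By the array names each NCP array carries an RNA sample of its own, which the study's methods describe as pooled from several fetuses. The names point to only 2 RNA samples among the total embryo arrays, isolate A on 4 arrays and isolate B on 3. This reading rests on the array names alone, and the isolate A names are not spelled uniformly. The labels give neither the stage nor the genotype of the total embryos, and they repeat the sorting protocol for every array. They place the NCPs in the lower urogenital tract, where the reporter marks crest progenitors and glia and can persist for a while in young neurons, so the sorted population is not a single cell type.

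Smooth muscle cells shorten when myosin pulls on filaments of smooth muscle actin, and their thin filaments carry calponin, caldesmon and transgelin, which bind actin and tune contraction. In the bladder and urethra these cells form the muscle that pelvic ganglion neurons command. The genes for this apparatus are known targets of serum response factor and its partner myocardin, which act through a DNA element called the CArG box.

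RefSeq (build GRCm38.p6) gave promoter windows for 5 of the 7 genes, 6 windows in all because *Cald1* has 2 starts. In the 250 bases before each start, 1 gene, *Acta2*, held a CArG box with at most 1 mismatch in its core of A and T, and it held 2 of them. Both strands are covered, because the element reads alike on each. Such a match occurred in 8.59% of all 32851 promoter windows, and a match with no mismatch in 1.47%. The windows of the genes with the largest and the smallest difference reported below are shown 5′ to 3′, both from the minus strand, with CArG matches in capitals.
Acta2, chr19:34255374-34255623: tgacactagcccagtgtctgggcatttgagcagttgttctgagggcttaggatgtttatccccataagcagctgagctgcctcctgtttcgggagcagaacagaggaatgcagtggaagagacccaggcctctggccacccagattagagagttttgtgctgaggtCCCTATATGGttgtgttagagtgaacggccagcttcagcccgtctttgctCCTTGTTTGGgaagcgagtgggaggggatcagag
Smtn, chr11:3539293-3539542: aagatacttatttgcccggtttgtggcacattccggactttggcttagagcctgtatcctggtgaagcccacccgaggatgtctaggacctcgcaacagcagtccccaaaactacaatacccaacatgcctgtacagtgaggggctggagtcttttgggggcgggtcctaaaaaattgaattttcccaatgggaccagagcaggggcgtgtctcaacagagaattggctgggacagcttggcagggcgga
The *Acta2* matches, CCCTATATGG and CCTTGTTTGG, begin 84 and 34 bases before the start. These are matches of letters only, and binding was not measured.

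The values are log2 intensities that the authors normalized by robust Multi-Array Average (RMA). The NCP arrays spread less than the reference, with a standard deviation (SD) over 28192 probe sets tested of 0.968 to 1.13 against 1.78 to 1.91 on the total embryo arrays. Olfactory receptor (Olfr) probe sets, 1035 in number and used as background because few tissues outside the nose express these genes, had medians of 5.41 to 5.62 on the NCP arrays and 3.68 to 3.96 on the total embryo arrays. NCP replicate 2 stood apart, since its housekeeping genes exceeded the Olfr median by only 0.717, against 3.45 and 4.38 on the other NCP arrays and 6.61 to 7.01 on total embryo. By limma with Benjamini-Hochberg adjustment, at an adjusted p of 0.05, 27.5% of the probe sets tested were lower in NCPs and 39.6% were higher. Every NCP array lay below every total embryo array for 21.5% of them, and above for 31.8%. The median log2 difference over all probe sets was 0.23. Centring the arrays on olfactory and vomeronasal receptor genes moved this median to −1.47 and the calls to 1339 higher and 21970 lower. Level adjustment subtracts from each array its trend on total embryo level, and it moved the median to −0.013 and the calls to 10.3% higher and 8.29% lower. *Sox10*, the gene behind the sorting reporter, had a log2 difference of 1.0 (standard error 0.18, adjusted p = 2.78e-04 from limma), and its NCP arrays all lay above the total embryo arrays. With arrays centred on receptor genes its difference turned to −0.69, and it was called lower (adjusted p = 0.0067 from limma). With arrays averaged per RNA isolate it did not pass (1.01, adjusted p = 0.0584 from limma).

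All 7 smooth muscle contractile genes were lower in NCPs than in total embryo, with a median log2 difference of −2.41, or −2.64 relative to the median of all probe sets. The differences ran from −3.45 for *Acta2* to −0.63 for *Smtn*. For 6 of the 7 genes every NCP array lay below every total embryo array, the exception being *Smtn*. This count stands beside the 27.5% of all probe sets called lower and the 21.5% without overlap. Fewer smooth muscle cells and less RNA per cell cannot be told apart in RNA from many cells. Housekeeping genes were lower too, all 7 of those measured, with a median of −1.59. The NCP arrays also spread less than the total embryo arrays (SD 0.968 to 1.13 against 1.78 to 1.91). The part of this narrower spread in the differences was not tested. The limma values for 3 against 7 arrays take the 7 total embryo arrays as independent. With total embryo arrays averaged per RNA isolate, which leaves 3 samples against 2, 6 of the 7 contractile genes were called lower. Adjusted p-values from limma were then 0.00228 for *Acta2*, 0.00224 for *Actg2*, 0.00314 for *Cald1*, 0.00628 for *Des* and 0.00789 for *Cnn1*. Over all probe sets 14.8% were then called lower and 20.4% higher. With level adjustment 3 of 7 were called lower, namely *Acta2*, *Actg2* and *Cald1*, beside 8.29% of all probe sets.

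**Figure D1:**
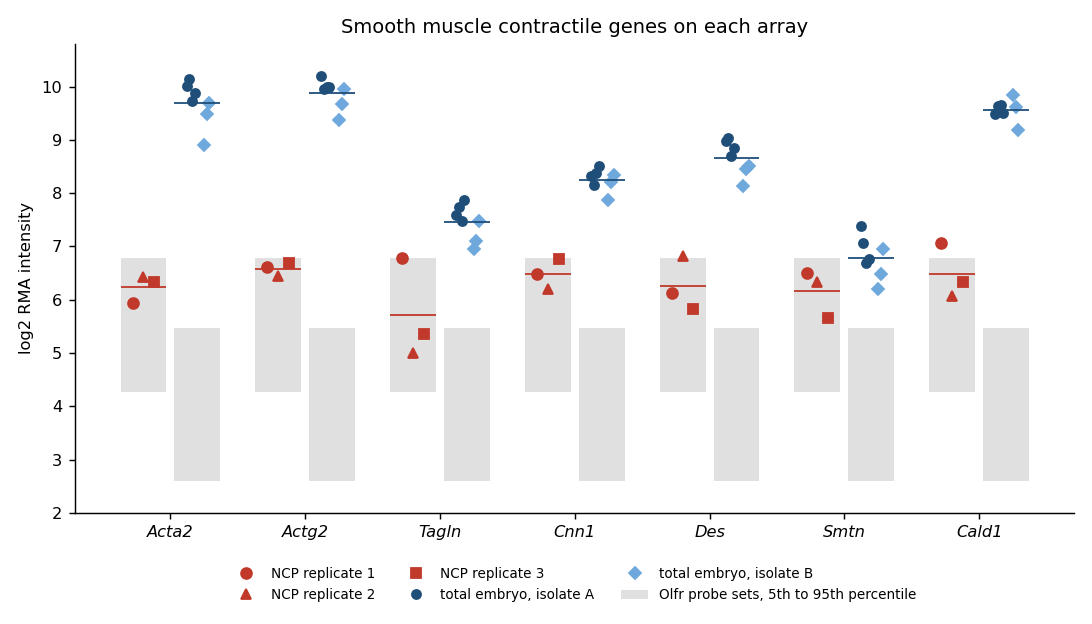
Log2 RMA intensity (vertical axis) of the 7 genes on each array, with NCP arrays in red by replicate, total embryo arrays in blue by RNA isolate, group means as horizontal lines and grey bars for the group mean of the 5th to 95th percentile of Olfr probe sets. Most red points lie inside the grey bars, while all blue points lie above theirs.

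The 2 smooth muscle actin genes had the largest decreases. *Acta2* encodes the alpha actin typical of vascular smooth muscle, which is also the usual marker of myofibroblasts. It was at 5.95, 6.43 and 6.33 on NCP arrays 1, 2 and 3, and between 8.90 and 10.14 on the total embryo arrays, with a median of 9.72. The groups did not overlap, and the gap between them was wider than the spread within either. NCPs averaged 6.24 ± 0.26 (SD, n = 3) and total embryo 9.69 ± 0.41 (SD, n = 7), for a log2 difference of −3.45 (95% interval −3.99 to −2.92, adjusted p = 1.82e-07 from limma), or 11.0-fold. *Actg2* encodes the gamma actin of enteric and other visceral smooth muscle. It was at 6.61, 6.45 and 6.70 on the NCP arrays and between 9.37 and 10.19 on the total embryo arrays, with a median of 9.95. It varied least among the NCP arrays of all 7 genes, over a range of 0.248, and again the groups did not overlap. The log2 difference was −3.29 (95% interval −3.70 to −2.89, adjusted p = 3.51e-08 from limma), or 9.79-fold. After level adjustment the differences shrank to −1.15 for *Acta2* (adjusted p = 0.0201 from limma) and −0.95 for *Actg2* (adjusted p = 0.0131 from limma), and both remained past the threshold. Proteins of the actin family are nearly identical, and whether RNA of another actin gene hybridized to these probe sets was not tested.

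The genes for actin-binding proteins of the thin filament fell as well, but they differed in how the NCP arrays lay. *Cald1* encodes caldesmon, which restrains myosin on actin and has non-muscle forms in many cells. It was at 7.06, 6.06 and 6.34 on the NCP arrays and between 9.19 and 9.83 on the total embryo arrays, with a median of 9.63. The groups were far apart, and NCP replicate 1 was the highest of its group. The log2 difference was −3.07 (95% interval −3.54 to −2.61, adjusted p = 1.65e-07 from limma), and −0.79 after level adjustment (adjusted p = 0.0252 from limma). *Cnn1* encodes calponin, an inhibitor of the myosin motor that is largely confined to smooth muscle. It was at 6.48, 6.20 and 6.77 on the NCP arrays and between 7.88 and 8.50 on the total embryo arrays, with a median of 8.31, so that the groups did not overlap. The log2 difference was −1.77 (95% interval −2.16 to −1.38, adjusted p = 2.99e-06 from limma). It was −0.11 after level adjustment (95% interval −0.45 to 0.23, adjusted p = 0.672 from limma) and did not pass.

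*Tagln* encodes transgelin (SM22), an early marker of smooth muscle differentiation that binds actin. It was at 6.78, 5.01 and 5.36 on the NCP arrays and between 6.95 and 7.88 on the total embryo arrays, with a median of 7.48. NCP replicate 1 lay just under the lowest total embryo array and far above the other NCP arrays, and the NCP range of 1.77 was the widest among the 7 genes. The SD over NCP arrays was 0.94, against a median of 0.48 over all probe sets. The log2 difference was −1.74 (95% interval −2.46 to −1.03, adjusted p = 4.71e-04 from limma). It was −0.73 after level adjustment and did not pass (adjusted p = 0.127 from limma). With arrays averaged per RNA isolate the difference was −1.71 and passed narrowly (adjusted p = 0.0491 from limma).

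Both genes of the wider cytoskeleton were lower, by unequal amounts. *Des* encodes desmin, the intermediate filament protein of smooth, skeletal and cardiac muscle. It was at 6.12, 6.82 and 5.82 on the NCP arrays and between 8.13 and 9.03 on the total embryo arrays, with a median of 8.70. NCP replicate 2 was the highest of its group, and the groups did not overlap. The log2 difference was −2.41 (95% interval −2.95 to −1.88, adjusted p = 3.02e-06 from limma), and −0.49 after level adjustment, which did not pass (adjusted p = 0.26 from limma). *Smtn* encodes smoothelin, a protein of contractile smooth muscle stress fibres. It was at 6.50, 6.33 and 5.66 on the NCP arrays and between 6.21 and 7.38 on the total embryo arrays, with a median of 6.77. The groups overlapped, and only NCP replicate 3 lay below every total embryo array. The log2 difference was −0.63 (95% interval −1.18 to −0.074, adjusted p = 0.0445 from limma). It no longer passed without NCP replicate 2 (−0.71, adjusted p = 0.0522 from limma), without NCP replicate 3 (−0.38, adjusted p = 0.223 from limma), with arrays averaged per RNA isolate (−0.60, adjusted p = 0.239 from limma) or after level adjustment (−0.21, adjusted p = 0.602 from limma). Leaving out any of total embryo replicates 3, 4, 5, 6 and 7 also ended the call (−0.53, −0.58, −0.64, −0.63 and −0.60).

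**Figure D2:**
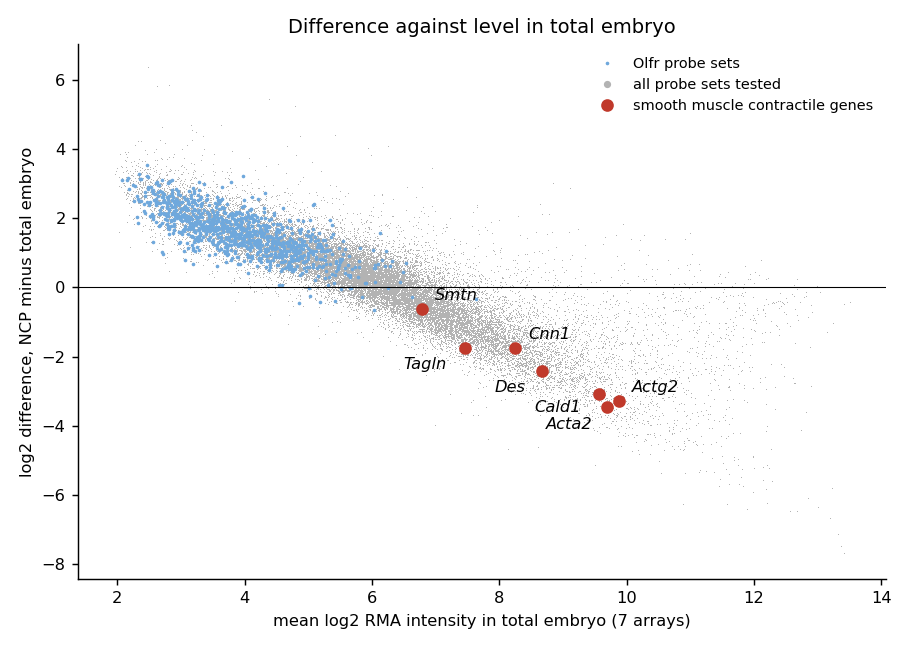
Log2 difference, NCP minus total embryo (vertical axis), against mean log2 RMA intensity in total embryo (horizontal axis), with all probe sets tested in grey, Olfr probe sets in blue and the 7 genes in red. The differences fall with level over the whole array and run from −0.63 for *Smtn* to −3.45 for *Acta2* among the 7 genes, of which *Acta2*, *Actg2* and *Cald1* lay below that trend by an amount that passed the test.

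Without NCP replicate 2, the array that stands apart, the other 6 genes were still called lower, with log2 differences of −3.55 for *Acta2*, −3.22 for *Actg2*, −2.86 for *Cald1*, −2.69 for *Des*, −1.62 for *Cnn1* and −1.39 for *Tagln*. *Cald1*, *Tagln*, *Cnn1* and *Actg2* had their lowest NCP value on that array, while *Acta2* and *Des* had their highest there. NCP replicate 1 held the highest value of *Tagln*, *Smtn* and *Cald1*, and NCP replicate 3 that of *Actg2* and *Cnn1*. Most of these values lay within background, so nothing is read from their order.

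Set against Olfr probe sets of the same array, the NCP levels lay mostly within background. Of 21 values, 7 genes on 3 NCP arrays, 3 exceeded the 95th percentile of Olfr probe sets. These were *Cald1* on NCP replicate 1 (percentile 97.2) and *Actg2* and *Cnn1* on NCP replicate 3 (percentiles 95.8 and 96.5). The mean percentile over the NCP arrays was highest for *Actg2* at 91.4, followed by *Cnn1* at 88.0, *Cald1* at 85.2, *Acta2* at 82.6, *Des* at 82.0, *Smtn* at 77.7 and *Tagln* at 54.6. On the total embryo arrays all 7 genes exceeded the 95th percentile on all 7 arrays, with mean percentiles from 99.7 for *Smtn* to 100. *Sox10* had a mean percentile of 99.0 on the NCP arrays, and percentiles of 99.3 to 99.9 on the total embryo arrays. Apart from the 3 values named, no NCP value of the 7 genes exceeded that percentile. Some Olfr probe sets exceed it too, so passing it does not show expression, and falling below it does not show absence. The median of the 7 genes lay 1.03, 0.71 and 0.917 above the Olfr median on NCP arrays 1, 2 and 3.

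With each NCP value below the Olfr 95th percentile raised to it, the log2 difference of *Acta2* was −2.92 (7.54-fold) and that of *Des* −1.89 (3.71-fold). *Tagln* came to −0.68 (1.60-fold) and *Smtn* to −0.016. For *Actg2*, *Cald1* and *Cnn1*, each with 1 NCP array above that percentile, the same step gave −3.09, −2.70 and −1.44. These values hold for the deposited scale and all 7 control arrays, and are no lower limits under the other scalings or control arrays. The floor was chosen after the values were seen.

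The reference itself varied between its arrays, which by their names hold 2 RNA isolates. On the isolate B arrays alone *Acta2* ran from 8.90 to 9.70. The source of this spread was not tested, and isolate goes together with the series of array names given below. The mean of isolate A exceeded that of isolate B for all 7 genes, by 0.58 for *Acta2*, 0.53 for *Des*, 0.50 for *Tagln*, 0.43 for *Smtn*, 0.37 for *Actg2*, 0.20 for *Cnn1* and 0.024 for *Cald1*. If the array names are read rightly, these are repeat arrays of 2 isolates, so the difference between isolates has no replicates and was not tested. The array names also fall into 2 series, 1 with the isolate A arrays and the other with the isolate B and NCP arrays. Within the latter, 3 arrays against 3, the log2 differences were −3.12 for *Acta2*, −3.08 for *Actg2*, −3.06 for *Cald1*, −2.11 for *Des*, −1.65 for *Cnn1* and −1.46 for *Tagln*, all called lower, and −0.38 for *Smtn*, which did not pass (adjusted p = 0.356 from limma). The total embryo array whose name carries the date of the NCP arrays, replicate 1, was the lowest of the 7 for every gene except *Cald1*, for which it was the highest. Against that array alone the log2 differences were −3.35 for *Cald1*, −2.78 for *Actg2*, −2.66 for *Acta2*, −1.88 for *Des*, −1.39 for *Cnn1*, −1.23 for *Tagln* and −0.045 for *Smtn*. A single array has no spread of its own, and the fit takes the spread from the NCP arrays alone. On that assumption *Cald1*, *Actg2* and *Acta2* passed (adjusted p = 0.0376, 0.0406 and 0.0426 from limma) and the other 4 genes did not. Date and group can be told apart only through that array.

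**Figure D3:**
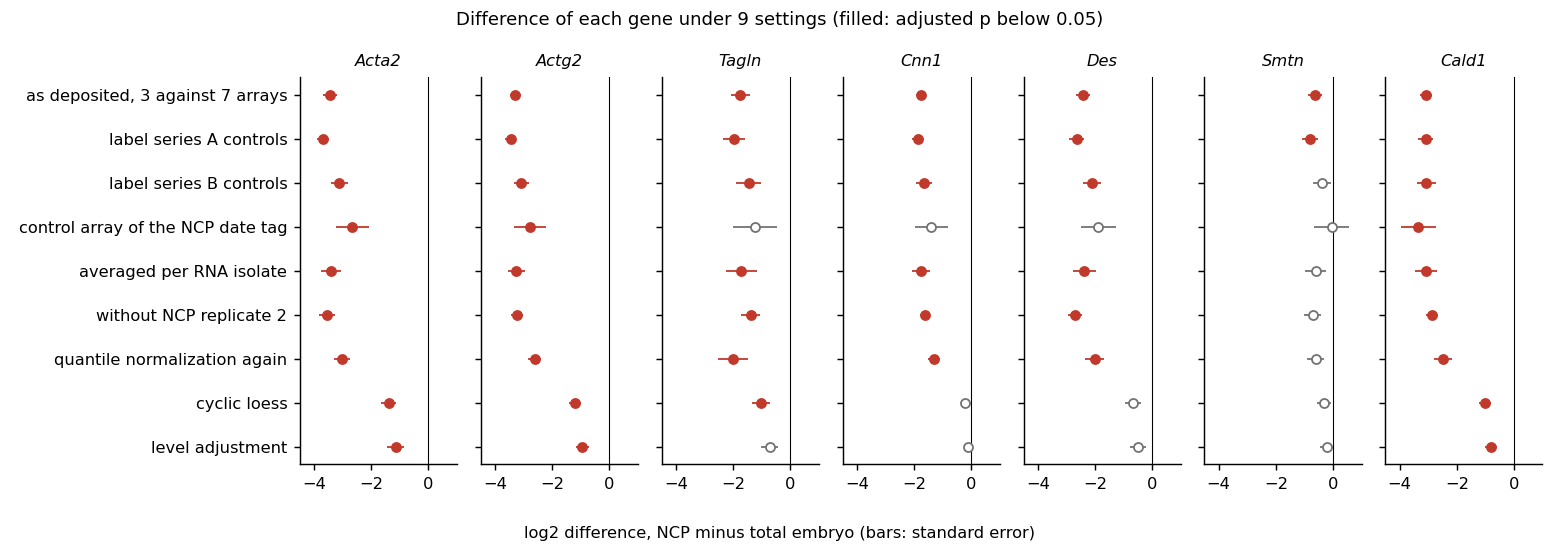
Log2 difference of each of the 7 genes, NCP minus total embryo (horizontal axis, bars show the standard error), under 9 settings (rows), with filled points for an adjusted p below 0.05. *Acta2*, *Actg2* and *Cald1* are filled in every row, *Cnn1* and *Des* are open with the control array of the NCP date tag, after cyclic loess and after level adjustment, and *Smtn* is filled in 2 rows.

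Other genes of the contractile apparatus were mostly lower too. Of 18 such genes 17 were measured, and 13 were lower, 1 higher and 3 did not pass, with a median log2 difference of −1.77. Over all probe sets 27.5% were lower and 39.6% higher. The tropomyosin genes *Tpm1* (−4.89, adjusted p = 3.10e-10 from limma) and *Tpm2* (−4.55, adjusted p = 2.39e-09 from limma), whose products lie along actin filaments in all muscle, fell most, and both passed after level adjustment (−2.26 and −1.94). At the other end *Lmod1*, which encodes an actin nucleator of smooth muscle, rose by 0.58 on the log2 scale (adjusted p = 0.0248 from limma), and *Pgm5*, which encodes a protein of adherens junctions in muscle, was at −0.025 and did not pass. *Lmod1* had a mean Olfr percentile of 90.8 in NCPs, with 1 array above the 95th, and of 98.5 in total embryo. It did not pass after level adjustment (0.40), with arrays averaged per RNA isolate (0.56) or within the label series of the NCP arrays (0.43). *Myh11*, the smooth muscle myosin heavy chain gene, is named for its role with its value known. NCPs averaged 6.51 ± 0.61 (SD, n = 3) and total embryo 8.96 ± 0.11 (SD, n = 7), for a log2 difference of −2.46 (adjusted p = 1.03e-06 from limma) that came to −0.38 after level adjustment (adjusted p = 0.298 from limma). With level adjustment 3 of the 17 were lower (*Tpm1*, *Tpm2* and *Nexn*), beside 8.29% of all probe sets. With arrays centred on receptor genes all 17 were lower, *Lmod1* and *Pgm5* included, as were 21970 of all 28192 probe sets.

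Genes of the same protein families that serve other cells moved unequally. Of 11 such paralogs 10 were measured, and 7 were lower and 3 did not pass (median −1.0). Over all probe sets 27.5% were lower and 39.6% higher. The striated muscle actins fell most, *Actc1* of cardiac muscle with a log2 difference of −5.94 and *Acta1* of skeletal muscle with −4.89 (adjusted p = 7.28e-10 and 3.83e-08 from limma), and both passed after level adjustment (−3.22 and −2.18). *Tagln3*, a transgelin gene of neurons, was at 0.030, and *Cnn2*, a calponin gene of many non-muscle cells, at −0.24, and neither passed. *Vim* encodes vimentin, an intermediate filament protein of mesenchymal and crest cells, and is named with its value known. It stood clear of background in NCPs (9.90 ± 1.0, SD over 3 arrays, mean percentile 100) and had a log2 difference of −0.97 (adjusted p = 0.0142 from limma). After level adjustment it turned to 1.55 and passed as higher (adjusted p = 3.79e-05 from limma), so its direction depends on the scaling.

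Regulators of smooth muscle genes did not move in 1 direction. Of 13 measured, 6 were lower, 2 higher and 5 did not pass, and the list median was −0.13. Over all probe sets 27.5% were lower and 39.6% higher. *Mef2c* (−3.53, adjusted p = 1.64e-08 from limma) and *Mef2a* (−2.97, adjusted p = 2.13e-07 from limma), which encode transcription factors of all muscle lineages, fell most and passed after level adjustment (−1.22 and −1.01). *Tbx18*, a gene of ureter and other urogenital mesenchyme, had a log2 difference of 0.72 (adjusted p = 0.0106 from limma) and *Mrtfa*, which encodes a cofactor of serum response factor, of 0.67 (adjusted p = 0.0197 from limma). Their mean Olfr percentiles in NCPs were 63.1 and 88.8, against 82.3 to 94.6 and 95.8 to 98.8 on the total embryo arrays. Neither *Tbx18* (−0.15) nor *Mrtfa* (0.34) passed after level adjustment or without NCP replicate 2 (0.51 and 0.34). With level adjustment 2 regulators were lower and 2 higher, beside 8.29% and 10.3% of all probe sets. The 2 higher were other genes, *Elk1* (0.92, adjusted p = 0.00259 from limma) and *Tshz3* (0.63), named with their values known. As deposited these were at −0.049 and 0.10 and did not pass. Their mean Olfr percentiles in NCPs were 98.5 and 97.1. *Myocd*, which encodes myocardin, was at 5.65 ± 0.59 in NCPs and 5.21 ± 0.18 in total embryo and did not pass (log2 difference 0.44, adjusted p = 0.0998 from limma). *Srf* was at 6.06 ± 0.61 against 6.19 ± 0.24 and did not pass either (−0.13, adjusted p = 0.659 from limma). Both are named for their role with their values known.

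Among 9 measured of 11 genes for the excitation and relaxation of smooth muscle, 3 were lower, 3 higher and 3 did not pass (median 0.11). These shares are near those of all probe sets, 27.5% lower and 39.6% higher. *Gucy1a1*, a subunit of the nitric oxide receptor guanylyl cyclase, fell by 1.57 and *Prkg1*, the kinase that acts downstream of it, by 1.39 on the log2 scale (adjusted p = 4.60e-06 and 6.27e-05 from limma). *Chrm3*, the muscarinic receptor that drives bladder contraction, rose by 1.05 (adjusted p = 0.00140 from limma), and *Kcnmb1*, a subunit of the calcium-activated potassium channel, by 0.87 (adjusted p = 0.0135 from limma). In NCPs *Chrm3* and *Kcnmb1* lay within background (mean percentiles 66.7 and 66.6). Their percentiles on the total embryo arrays were 65.5 to 93.3 and 75.2 to 96.9. Both increases were gone after level adjustment (0.014 and −0.037). Without NCP replicate 2 *Chrm3* passed and *Kcnmb1* did not (0.56). With arrays centred on receptor genes all 9 of this list were called lower, as were all 13 regulators, because that step lowers every gene alike.

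**Figure D4:**
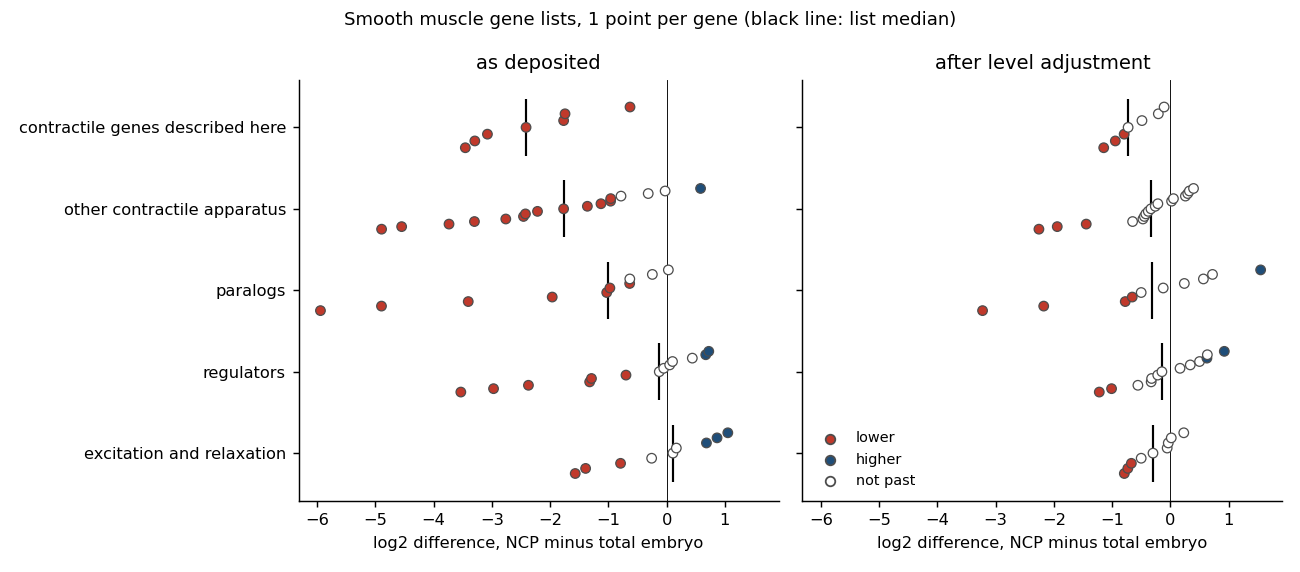
Log2 difference of single genes, NCP minus total embryo (horizontal axis), in 5 lists (rows), as deposited on the left and after level adjustment on the right, with red points lower, blue points higher, white points not past an adjusted p of 0.05 and black lines at list medians. The median of the 7 contractile genes moved from −2.41 to −0.73.

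Marker genes of other cells that the sorted tissue could hold were lower on the same arrays. All 8 fibroblast and mesenchyme markers were lower (median −2.37), as were 8 of 9 striated muscle markers (−4.89) and 5 of 6 endothelium markers (−1.16). So were 5 of 6 epithelium markers (−1.76) and all 7 housekeeping genes measured (−1.59). Over all probe sets 27.5% were lower and 39.6% higher. After level adjustment the counts lower were 5 of 8 for mesenchyme, 7 of 9 for striated muscle, 3 of 6 for epithelium and 0 of 6 for endothelium. Of the housekeeping genes 2 were then lower and 2 higher. Over all probe sets 8.29% were lower and 10.3% higher after this step. Against the single total embryo array of the NCP date, the medians were −2.11 for mesenchyme, −4.06 for striated muscle and −1.54 for housekeeping genes. They were −1.07 for endothelium and −1.46 for epithelium, and a single array has no spread of its own. The mean level of the mesenchyme list ranged from 5.99 to 6.62 on the NCP arrays and between 8.83 and 9.18 in total embryo, close to the 7 contractile genes at 6.14 to 6.50 and 8.18 to 8.85. By mean percentile 0 of the 8 mesenchyme markers and 0 of the 7 contractile genes were above the Olfr 95th percentile in NCPs. For striated muscle 2 of 9 were, and their mean level ranged from 6.15 to 6.76 in NCPs and from 10.03 to 10.48 in total embryo. *Des* is also a gene of striated muscle, and the part of that muscle in the *Des* level of total embryo was not tested. Whether RNA of these cells contributed to the 7 genes was not tested. Of 7 crest and glial markers measured, 3 were higher, namely *Sox10*, *Foxd3* and *Cdh19*, and 2 lower, *Erbb3* and *Ednrb*, shares near the 39.6% higher and 27.5% lower among all probe sets. *Cdh19* did not pass after level adjustment (0.32, adjusted p = 0.437 from limma), and its mean percentile in NCPs was 57.5. *Sox10* alone of the 7 had a mean percentile above 95 in NCPs.

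The genes with array profiles nearest to the mean profile of the 7, over the 10 arrays and with each gene centred on its own mean, were *Smagp*, *Akr1a1*, *Lyz2*, *Psap* and *Lama4*. Their root mean square distances were 0.127, 0.137, 0.148, 0.151 and 0.151 on the log2 scale, and their log2 differences ran from −2.53 to −2.16. Among the 7 genes themselves *Des* lay nearest to that mean, at 0.268, and *Smtn* farthest, at 0.813. By this measure *Des* ranked 152 and *Smtn* 4950 among all genes. The 10 points fall into 2 groups of arrays, so genes with a like group difference lie near each other.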

How the data were processed

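RNA of 3 NCP samples and of total embryo (7 arrays, 2 isolates by the array names) had been amplified and hybridized to Affymetrix mouse Gene 1.0 ST arrays. The study's methods name a WT-PICO amplification and the labels a One-Cycle labelling kit, and which was used is not settled here. The deposited values are log2 intensities, which the authors computed by RMA in Affymetrix Expression Console 1.1. They were used as deposited. The table has 34760 probe sets. Without its 6568 control probe sets, 28192 were tested. Platform annotation gave 1 gene symbol to 21640 of these, several to 1321 and none to 5231, and 19918 of 19937 gene symbols were found among RefSeq names.

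Groups were compared with limma 3.58.1 (lmFit and eBayes, R 4.3.3), with p-values adjusted by Benjamini-Hochberg across these probe sets and a threshold of 0.05. The script was tested on simulated data with independent arrays, so repeat arrays of an isolate were not imitated. Far fewer probe sets were changed there than were called here. Of changes with a log2 size of 0.5, 1, 1.5 and 3, the test recovered 0%, 28%, 86% and 100%. It made 8 false calls among 27992 unchanged probe sets. The Olfr percentile of a gene is its rank among 1035 Olfr probe sets on the same array. Level adjustment subtracted from each array a lowess curve (span 0.3) of its deviation on the total embryo level. The alternatives were other choices of control arrays, isolates averaged or as a block, other scalings, variance models and filters, and each array left out. All 7 genes are named, of every other list up to the 2 lowest and the 2 highest, and the 5 genes nearest to the mean profile. Beyond that rule, *Sox10* is named as the gene of the reporter, and *Synpo2* and *Upk1b* for an array that lay apart. *Myh11*, *Nexn*, *Vim*, *Myocd*, *Srf*, *Elk1* and *Tshz3* are named with their values known. The genes and lists were chosen with earlier results of these data known.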

Additional observations from a re-analysis of the deposited data

Results flagged for a closer look

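Of 104 genes measured in all lists, 4 had a total embryo array far from the other 6. *Synpo2*, of the contractile apparatus list, was at 7.45 on total embryo replicate 4, the highest of the group, with a gap to the next array of 0.78 of the range. *Upk1b*, an epithelium marker, was at 8.36 on replicate 3, also the highest (0.66 of the range). *Cspg4*, a pericyte marker, was at 6.43 on replicate 4, again the highest (0.57 of the range). *Sox10* was at 6.38 on replicate 2, the lowest (0.58 of the range). Chance gives such a gap in about 1 of 20 groups. None of the 7 contractile genes had such an array.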

How the results depend on the processing

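No paired analysis was possible because the labels give the groups no shared replicate numbers. In 29 alternatives the calls of *Acta2*, *Actg2* and *Cald1* were kept in every one, and calls were lost in 2 for *Tagln*, 3 each for *Cnn1* and *Des* and 20 for *Smtn*, and no direction turned. Among the 29, the single array of the NCP date tag, has no spread of its own for the reference. The 7 genes called lower became 3 against the array of the NCP date tag, 4 after cyclic loess, 3 after level adjustment, 4 after level adjustment without NCP replicate 2 (chosen after seeing the data), and 6 to 7 with 1 array left out. Genes called lower in the 4 other lists were as follows. The contractile apparatus (13) went to 4 against the date tag array, 6 after cyclic loess and 3 after level adjustment. Paralogs (7) went to 2 against the date tag array and to 4 with series B controls, isolates averaged, quantile normalization, cyclic loess and level adjustment. Regulators (6) went to 3 against the date tag array, after cyclic loess and with the lowest probe set of a gene, to 2 after level adjustment and to 13 with receptor centring. Excitation and relaxation genes (3) went to 0 against the date tag array and 9 with receptor centring. Regulators called higher (2) went to 4 after cyclic loess, to 1 with median centring and the filter on dim probe sets, to 0 with either series of controls, the date tag array, isolates averaged or as a random block, receptor centring, array weights and an adjusted p of 0.01, and to 1 to 3 with 1 array left out. Excitation and relaxation genes called higher (3) went to 1 with series B controls, the isolate block, the series block, array weights, the dim filter and an adjusted p of 0.01, to 0 against the date tag array, with isolates averaged, quantile normalization, cyclic loess, receptor centring and level adjustment, and to 1 to 3 with 1 array left out, the lowest without NCP replicate 2. Of the 7 genes, 1 remained under the Olfr 95th percentile after cyclic loess and 0 after level adjustment, since both steps pull NCP values towards total embryo levels. Signal over background on the NCP arrays limits every fold change here.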

Other observations

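Pericytes, the mural cells of small vessels, share *Acta2*, *Tagln* and *Des* with smooth muscle. Of 8 pericyte markers 6 were lower in NCPs, with a median log2 difference of −0.94. Over all probe sets 27.5% were lower and 39.6% higher. *Anpep* (log2 difference −3.31) and *Kcnj8* (−2.13) fell most, while *Cspg4* (−0.0057) and *Notch3* (0.12) did not pass. After level adjustment 2 of the 8 were lower, *Anpep* and *Kcnj8* (−1.03 and −1.35), beside 8.29% of all probe sets. The mean level of the 8 markers ranged from 5.90 to 6.31 on the NCP arrays and between 6.96 and 7.31 in total embryo, and 0 of them had a mean percentile above the Olfr 95th percentile in NCPs.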
